A study of Drosophila melanogaster with 3 samples.

Results

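The peaks described here are the weaker promoter peaks of tap, a neurogenin-family transcription factor, from chromatin immunoprecipitation sequencing of Drosophila melanogaster embryos. They are the peaks of the list called on the pooled replicates that were absent from the thresholded peak set and had their summit within 500 bp of the transcription start site (TSS) of a protein-coding gene. The members were therefore chosen by measured values, the authors' signal in the pooled list, of which the thresholded set held the strongest, and by the position of the summit. There were 4975 members among 30000 pooled peaks, which is 19.4% of the 25664 peaks below the threshold. The thresholded set held 1640 peaks at promoters and 2696 elsewhere. The samples formed 1 group of 3 biological replicates, all of a transgenic tap line of strain tap that stably carries eGFP fused to the C-terminus of tap. Embryos of both sexes, 6 to 16 h old, were used whole, the fusion protein was recovered with an antibody against GFP, and fragments of 200 to 800 bp were sequenced. Every sample carried the tagged protein, and embryos without the tag were not analysed here, so signal of tap cannot be told apart from signal that the same immunoprecipitation gives without it. In whole embryos a site bound in few cells cannot be told apart from a site bound weakly in many.

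The protein encoded by tap is a basic helix-loop-helix (bHLH) factor, and factors of this family act together with the broadly expressed partner Daughterless at E-boxes, which read CANNTG. Related factors are known for starting and advancing neuronal differentiation. A promoter is the stretch around a TSS where the transcription machinery assembles, and fly promoters fall into broad kinds that differ in sequence. Promoters of broadly active genes often carry the DNA replication-related element (DRE), bound by the factor Dref, or the core promoter element called motif 1, bound by M1BP. Promoters of regulated genes more often carry a TATA box, an Initiator, or GAGA repeats, which are bound by the GAGA factor that the gene Trl encodes. Neighbouring genes that start back to back share a divergent promoter.

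The sequences that bear on the results are those under the summits, and examples are given for the motifs that the comparisons with flanking DNA turned on. They are the 101 bp around the summit, taken from RefSeq's copy of the dm6 assembly, written 5′ to 3′ on the strand of the nearest protein-coding gene. Examples were taken in order of signal among the 1675 members with the summit upstream of the TSS and no exon in the window, and not from every chromosome arm. This choice was made after the values were seen. The first set shows CGATAG, the hexamer with the highest ratio between summits and flanks of the members among those in at least 5% of either, in capitals. It comes from cib, which encodes an actin-binding protein (chrX:4105986-4106086, plus strand), from pad, which encodes a zinc-finger protein (chr3R:16342151-16342251, plus strand), and from CG32017 (chr4:1146599-1146699, minus strand).
cib: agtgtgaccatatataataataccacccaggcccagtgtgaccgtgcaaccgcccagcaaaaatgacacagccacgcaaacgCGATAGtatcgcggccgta
pad: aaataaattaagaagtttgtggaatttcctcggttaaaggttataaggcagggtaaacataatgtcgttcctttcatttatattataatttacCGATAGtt
CG32017: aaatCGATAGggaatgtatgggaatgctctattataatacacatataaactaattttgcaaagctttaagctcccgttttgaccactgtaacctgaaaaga
The DRE, TATCGATA, is in capitals in the windows of Tctp, a gene of growth control (chr3R:11210144-11210244, plus strand), and CG2246 (chr3R:30601498-30601598, minus strand).
Tctp: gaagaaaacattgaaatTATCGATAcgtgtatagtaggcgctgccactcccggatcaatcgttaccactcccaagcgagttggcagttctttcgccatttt
CG2246: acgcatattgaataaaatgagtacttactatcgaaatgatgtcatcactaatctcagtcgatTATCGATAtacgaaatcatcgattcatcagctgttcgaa

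The sequence GGTCACAC, the core of motif 1, or its reverse complement is in capitals in windows of oaf (chr2L:2492806-2492906, plus strand), CG17364 (chr3L:13993765-13993865, minus strand) and unc-119, which encodes a trafficking factor of lipid-modified proteins (chrX:7291334-7291434, minus strand). It had the highest ratio between summits and flanks among the motifs listed for these peaks.
oaf: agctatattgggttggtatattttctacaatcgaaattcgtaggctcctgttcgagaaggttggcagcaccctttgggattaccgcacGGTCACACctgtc
CG17364: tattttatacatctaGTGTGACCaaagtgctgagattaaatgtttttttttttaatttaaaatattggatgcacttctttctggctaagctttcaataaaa
unc-119: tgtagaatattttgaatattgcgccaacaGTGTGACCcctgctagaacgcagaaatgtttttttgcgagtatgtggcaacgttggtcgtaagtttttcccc
The GAGA sequence GAGAG, or CTCTC on the other strand, is in capitals at BicD, which encodes an adaptor of the dynein motor (chr2L:17473230-17473330, minus strand), ps, which encodes a splicing factor (chr3R:9436726-9436826, plus strand), and CG31140 (chr3R:23962992-23963092, plus strand).
BicD: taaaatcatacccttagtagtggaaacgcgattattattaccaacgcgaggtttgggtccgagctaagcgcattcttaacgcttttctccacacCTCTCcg
ps: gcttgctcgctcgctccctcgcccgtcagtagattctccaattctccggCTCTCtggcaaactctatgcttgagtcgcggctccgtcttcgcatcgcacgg
CG31140: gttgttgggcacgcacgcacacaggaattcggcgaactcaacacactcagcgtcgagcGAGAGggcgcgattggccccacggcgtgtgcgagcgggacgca

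E-boxes are shown because they are the class of sequence a bHLH factor binds. CAGCTG is in capitals at BNIP3, which encodes a mitophagy receptor (chr3L:20517610-20517710, minus strand), and Ca-beta, which encodes a calcium channel subunit (chr2L:11203805-11203905, minus strand). CATATG is in capitals at Vha55, which encodes a subunit of the vacuolar ATPase (chr3R:12627857-12627957, minus strand).
BNIP3: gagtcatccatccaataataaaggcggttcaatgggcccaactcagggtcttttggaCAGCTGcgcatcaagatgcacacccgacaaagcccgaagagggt
Ca-beta: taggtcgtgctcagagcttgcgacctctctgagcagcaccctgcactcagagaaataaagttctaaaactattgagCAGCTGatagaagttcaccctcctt
Vha55: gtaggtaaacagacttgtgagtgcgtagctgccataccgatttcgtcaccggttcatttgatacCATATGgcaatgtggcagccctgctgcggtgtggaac

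No read counts come with the lists, and the depth behind a peak is unknown. Each replicate list held 30000 peaks, like the pooled list. To give the members an error between replicates, each replicate list was divided in the same way, with its strongest peaks, as many as the thresholded set held, in the place of that set. This gave 5198, 5656 and 5726 promoter peaks outside the strongest in replicates 1, 2 and 3, called their equivalents below, or 20.3%, 22.0% and 22.3% of the weaker peaks (21.5% ± 1.12, SD, n = 3). The replicate lists are of separate samples. No interval was identical between any pair of them, but their peaks mostly had different widths (364, 376 and 316 bp in replicates 1, 2 and 3). Identical intervals were thus hardly possible, and their absence says nothing on how separate the lists are. Replicate 3 stood apart from the other 2. Its peaks were mostly 316 bp wide, those of replicate 1 364 bp, and fewer of its peaks matched the members. The GC content of its equivalents was 45.3%, against 39.4% and 39.5% in replicates 1 and 2. Values without it are therefore given beside the results that it touches. With 3 lists a two-sided exact sign-flip permutation test cannot give a p below 0.25, so no comparison between lists could pass 0.05.

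Around the threshold the signal was continuous. The last promoter peaks inside the thresholded set were those of Sfxn1-3 (signal 153.44), pan (153.47) and olf413 (153.48), and the first members outside it were those of pk, a gene of planar cell polarity (153.37), CG46385 (153.35), CG3609 (153.35) and Prosbeta1, which encodes a catalytic proteasome subunit (153.31). From there the signal of the members fell to 38.2, with a median of 68.7, where the median of the thresholded promoter peaks was 260. The members held ranks 4337 to 29994 of the pooled list, with a median rank of 13646. The 5 weakest, at CG11110, CG4218, CG34398, Wdr92 and CG34367, had signals between 38.2 and 38.3, and CG34398 was matched in 2 replicate lists and the others in 1. These values describe the choice and support nothing. Nearly all members, 4960, had the same width, so their intervals carry no information beyond the summit. In the pooled list no summit lay closer than 199 bp to a member, and 1246 members had another pooled summit within 250 bp. Neighbouring members may thus hold parts of the same enrichment, which was not tested.

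Most members were found again in some of the replicate lists, and a minority in all. A summit within 200 bp of the member's summit was present for 71.2%, 70.3% and 56.7% of the members in replicates 1, 2 and 3. In all 3 lists it was present for 1376 members (27.7%), in exactly 2 for 46.0%, in 1 for 23.2% and in none for 155 members (3.12%). Positions of the promoter windows lay within 200 bp of a summit in 17.0%, 17.8% and 18.8% of cases in the same lists, and in all 3 in 6.05%. The thresholded promoter peaks, which the replicates helped to select, were matched in all 3 lists in 87.1% of cases, and weaker peaks away from promoters in 19.6%. When a replicate peak could match only 1 pooled peak, 22.9% of the members were matched in all 3. Without replicate 3, 50.1% of the members were matched in both remaining lists.

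Where a match was present, it was usually a peak of middle rank. The median rank of the matching peaks was 11016, 11332 and 10522 in replicates 1, 2 and 3, and 6.41%, 5.53% and 8.44% of the members matched a peak among the strongest of that list, as defined above. The order of the members was poorly shared between the lists. Spearman's rho of their ranks was 0.24 between replicates 1 and 2 (2493 members), 0.17 between 1 and 3 (1995 members) and 0.11 between 2 and 3 (1930 members). For the thresholded promoter peaks the same coefficients were 0.79, 0.58 and 0.55. The members span a narrower range of signal, and peaks of 1 library are not replicates, so these values only describe the lists.

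Support by replicates fell steeply with rank. Divided into 5 rank groups of 995, the members were matched in all 3 lists in 66.9%, 41.5%, 19.2%, 6.43% and 4.22% of cases from the strongest to the weakest group. The share of pooled peaks that lay at promoters fell in the same order, from 32.1% through 24.8%, 19.96% and 16.5% to 13.2%, against 37.8% in the thresholded set and 11.5% of all positions of the chromosome arms. The weakest group was thus close to the share of positions in promoter windows. Replicate support is partly built into the rank, since the pooled list was called on the same reads.

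**Figure D1:**
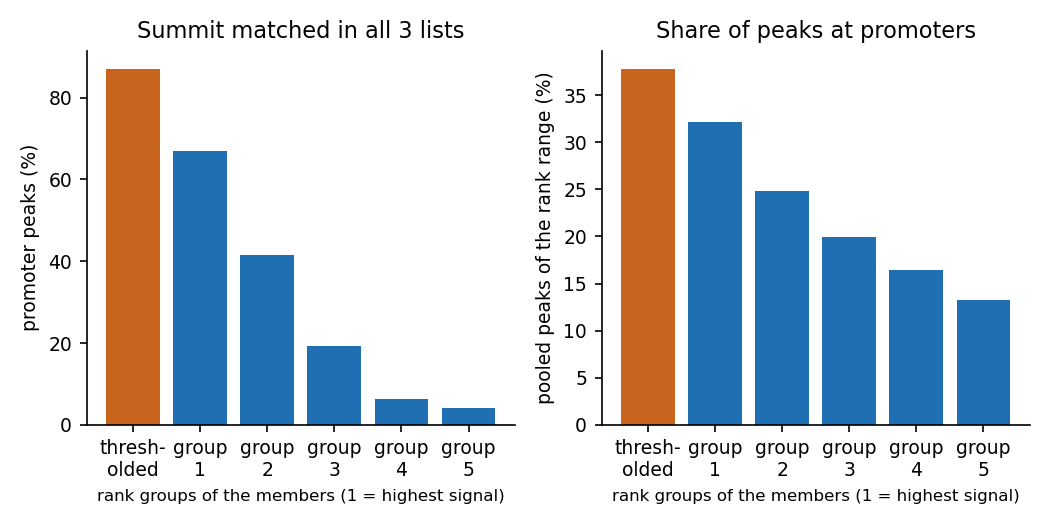
Promoter peaks with a summit within 200 bp in all 3 replicate lists (left, in percent) and pooled peaks that lie at promoters (right, in percent), for the thresholded set and for 5 equal groups of the members ordered by signal. Both shares fall from group 1 (66.9% and 32.1%) to group 5 (4.22% and 13.2%), below the thresholded peaks (87.1% and 37.8%).

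The strongest members lay at genes of varied function. After pk, with ranks 2961, 16245 and 4654 in replicates 1, 2 and 3, came CG46385 at 2898, 7660 and 16682. The member of CG3609 ranked 1856 and 4574 in replicates 1 and 2 and had no match in replicate 3. Its window held 23% GC, whereas that of pk held 61%. The member of Prosbeta1 ranked 4650, 15346 and 1665. These ranks differed several-fold between replicates of the same peak. The other 6 of the 10 strongest were at whd, which encodes carnitine palmitoyltransferase, SNF4Agamma, a subunit of the energy sensor AMP kinase, Ogdh, an enzyme of the citric acid cycle, ush, a cofactor of GATA factors, ebd1, a cofactor of Wnt signalling, and CG13334. Among them only SNF4Agamma, like CG3609, had no match in replicate 3, and the other 8 of the 10 were matched in all 3 lists.

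Members with the best mean rank in the 3 replicate lists, among those without a thresholded summit within 1000 bp, were picked after their values were seen. The first was at simj, which encodes a subunit of the NuRD chromatin-remodelling complex (chr3L:10664540-10664915, summit 11 bp upstream of the TSS), at ranks 4770, 4782 and 2265. It stood only at rank 7355 in the pooled list. The next were at CG9331 (ranks 7351, 3230 and 1682), mys, which encodes the beta subunit of integrins (4299, 3367 and 4656), and dop, a kinase gene (5973, 4350 and 2566). They were followed by Hsc70-3, which encodes the chaperone BiP of the endoplasmic reticulum (5054, 4009 and 4499), and Sarm, a gene of axon degeneration (3008, 6963 and 3897). The last of the 10 were betaTub56D, a tubulin gene, Ndf, pst and Ppa. All 10 lay within 144 bp of the TSS, and each had at least 1 replicate in which it was outside the strongest peaks. The member of Hsc70-3 was the most even of these, with all 3 ranks between 4009 and 5054.

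A further 10 members matched a peak among the strongest of every replicate, although their pooled signal was between 42.6 and 137. They lay at vri, numb, PTPMT1, E(spl)m3-HLH, Rh5, CYLD, Rme-8, CG8788, Pkc98E and CG6565. Each of them was 199 to 208 bp from a thresholded summit with a signal between 230 and 1127, so the matching replicate peak may be that of the stronger summit. At numb, which encodes an inhibitor of Notch, the member had a signal of 55.3 and the neighbour 662, and the matching replicate peaks ranked 322, 275 and 2911. At vri, which encodes a clock transcription factor, the member had 42.6 and the neighbour 520. Such neighbours were few. Only 59 members (1.19%) had a thresholded summit within 200 bp, 285 within 500 bp and 756 (15.2%) within 1000 bp. Among the 4219 members with none within 1000 bp, 26.2% were matched in all 3 lists, close to the 27.7% of all members.

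Few members shared their promoter with a thresholded peak, and few TSSs had such a peak at all. Nearest to a TSS that also had a thresholded summit within 500 bp were 363 members (7.30%), where 12.6% of all TSSs had such a summit. Of 19253 distinct protein-coding TSSs, 5390 (28.0%) had a member within 500 bp, 2423 (12.6%) a thresholded summit, 505 both, and 62.04% neither. For 140 members (2.81%) the TSS of a gene of another kind was nearer than the protein-coding one, of a noncoding RNA in 73 cases, a transposable element in 45 and a tRNA in 16.

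Within the promoter window the summits of the members lay farther downstream, and more often beyond the TSS, than those of the thresholded peaks. Their median summit was 51 bp upstream of the TSS (pooled offset -51), and the equivalents had -61, -40 and -2 bp in replicates 1, 2 and 3. The thresholded promoter peaks had a median of -125 bp, and the strongest peaks of the replicates -128, -127 and -79.5 bp. The difference was 77.2 ± 10.004 bp (SD, n = 3), in the same direction in 3 of 3 lists (exact permutation p = 0.25), and 77.0 bp without replicate 3. The members were less concentrated in the stretch 100 to 200 bp upstream, which held 14.5% of them and 29.5% of the thresholded promoter peaks. Within 100 bp of the TSS lay 39.7% of the members, 33.5% of the thresholded promoter peaks and 23.8% of the positions of the promoter windows.

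Downstream of the TSS lay 38.7% of the member summits, against 19.7% of the thresholded ones and 54.9% of the window positions. In replicates 1, 2 and 3 the equivalents gave 37.6%, 41.9% and 49.4%, above the 18.9%, 21.0% and 28.6% of the strongest peaks of the same lists. No value of the equivalents overlapped with those of the strongest peaks. The difference was 20.2 ± 1.21 percentage points (SD, n = 3), positive in 3 of 3 lists (exact permutation p = 0.25). Among members of genes with a single cluster of TSSs, 37.2% were downstream. Along the rank groups the median offset moved from -61 bp in the strongest to -35 bp in the weakest group. The share within 100 bp of the TSS fell from 47.9% to 30.4%, where the thresholded promoter peaks had 33.5%.

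**Figure D2:**
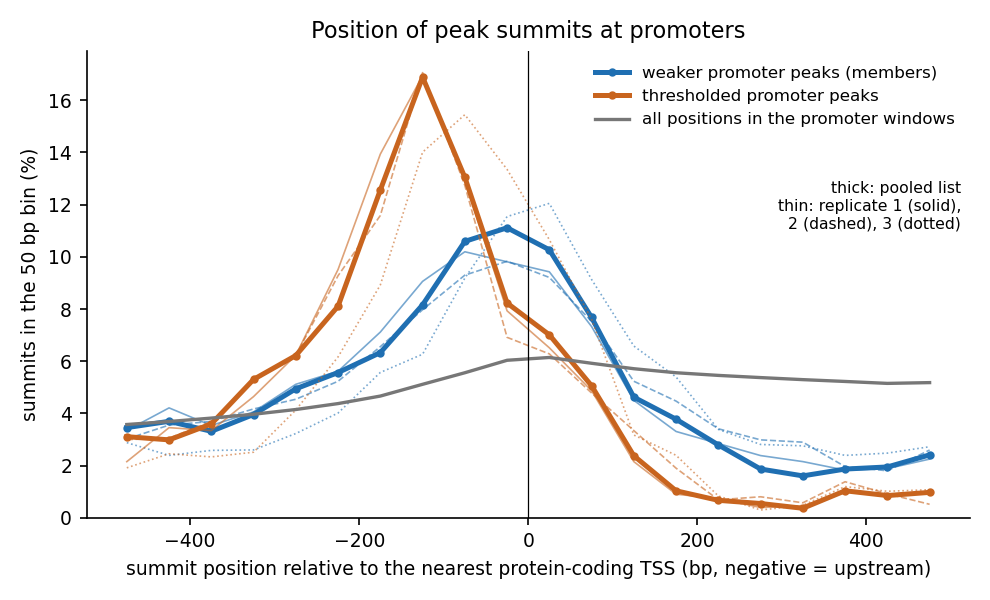
Share of summits in 50 bp bins by position relative to the nearest protein-coding TSS, for the members, the thresholded promoter peaks and all positions of the promoter windows. Thick lines are the pooled list and thin lines the 3 replicate lists. The thresholded peaks reach their highest bin, 16.9%, 100 to 150 bp upstream, and the members theirs, 11.1%, in the 50 bp before the TSS.

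Annotation at the summit followed this shift into the transcribed part. The summit of 34.4% of the members lay outside any annotated transcript, in 27.3% it lay in an intron, in 28.8% in a 5' UTR, in 5.03% in a coding exon and in 2.45% in a 3' UTR. Where several annotations held, a 5' UTR was given priority, then a coding exon. Coding exons made up 24.6% of the positions in the promoter windows, so they held fewer summits than their extent. The equivalents had 5.46%, 6.47% and 12.1% in coding exons in replicates 1, 2 and 3, with replicate 3 highest, and the strongest promoter peaks had 0.567%, 0.634% and 1.08%. The difference was 7.24 ± 3.27 percentage points (SD, n = 3), and all 3 equivalents were above all 3 values of the strongest peaks (exact permutation p = 0.25). For 5' UTRs the equivalents had 27.3%, 29.9% and 33.6% and the strongest peaks 17.3%, 18.04% and 28.1%, a difference of 9.10 ± 3.29 percentage points (exact permutation p = 0.25, 3 of 3 lists). Here the value of replicate 3 for the strongest peaks was above the equivalents of replicate 1.

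**Figure D3:**
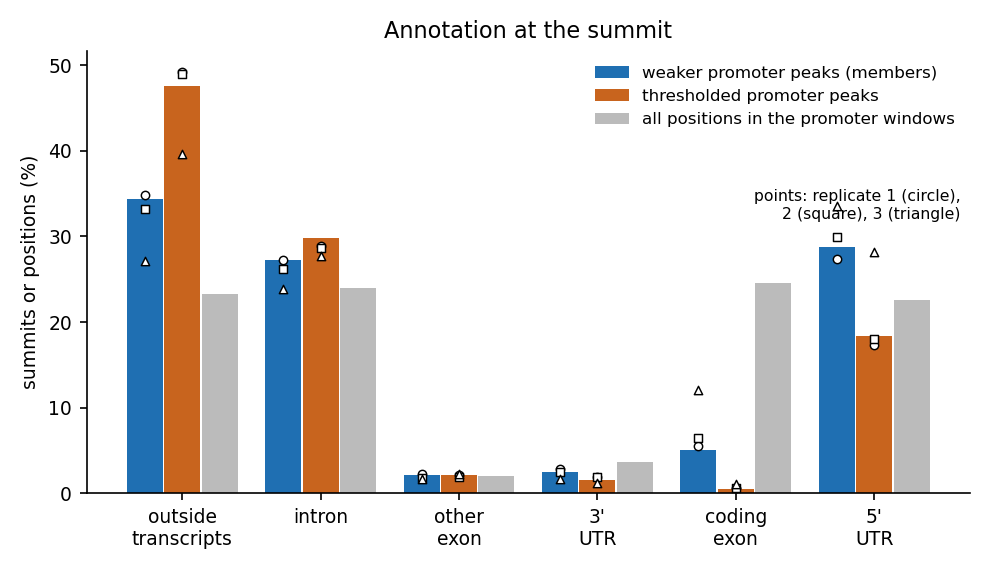
Annotation at the summit, in percent of summits or positions, for the members, the thresholded promoter peaks (bars, pooled list, with points for the 3 replicate lists) and all positions of the promoter windows (grey bars). Members lie in coding exons in 5.03% of cases and thresholded promoter peaks in 0.488%, while coding exons make up 24.6% of the windows.

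The summits of the members had a smaller drop in GC content than the thresholded peaks. The 100 bp around the summit held 40.6% GC on average in the members and 33.1% in the thresholded promoter peaks, while weaker peaks away from promoters had 39.0%. In the windows of the same size 500 bp to each side the members had 42.4% and the thresholded promoter peaks 44.4%. The difference of summit minus flanks was thus -1.82 percentage points in the members and -11.2 points in the thresholded promoter peaks.

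In the replicate lists the equivalents had 39.4%, 39.5% and 45.3% GC at the summit (41.4% ± 3.35, SD, n = 3, and 39.5% without replicate 3), and the strongest promoter peaks 32.4%, 31.9% and 39.0%. Within each list the equivalents were higher, by 6.99 ± 0.695 percentage points (SD, n = 3, exact permutation p = 0.25). Replicate 3 was high in both classes, so its strongest peaks came close to the equivalents of the other 2. The difference from weaker peaks away from promoters was 1.24 ± 0.294 points, also in 3 of 3 lists (exact permutation p = 0.25). Taken relative to the flanks this difference did not hold, with 0.30, -0.23 and -0.62 points in replicates 1, 2 and 3 (-0.18 ± 0.46, SD, n = 3, exact permutation p = 0.75). Between summit and flanks the equivalents of replicates 1 and 2 had differences of -3.28 and -3.31 points, and those of replicate 3 a difference of 2.57, so that the direction was not shared (exact permutation p = 0.50).

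Since GC content varies with the distance from a TSS, the members were also set beside all protein-coding TSSs at the same offsets. These had 41.6% GC at the offsets of the members (members minus TSSs, -1.02 points), and 40.1% at those of the thresholded peaks (difference -6.98). TSSs without any pooled summit, 11945 of them, had 41.7% at the offsets of the members. The base composition of the members was thus close to that of unlisted promoters in the pooled list, and the replicates gave -2.16, -2.30 and 2.93 points, on both sides of 0. GC content also followed which replicates had the peak. Members matched in replicates 1 and 2 but not 3 (1117) had 35.1% GC, and those in replicate 3 alone (274) had 46.8%, while those in all 3 had 42.1%. Along the rank groups GC content stayed between 39.8% and 41.3%.

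**Figure D4:**
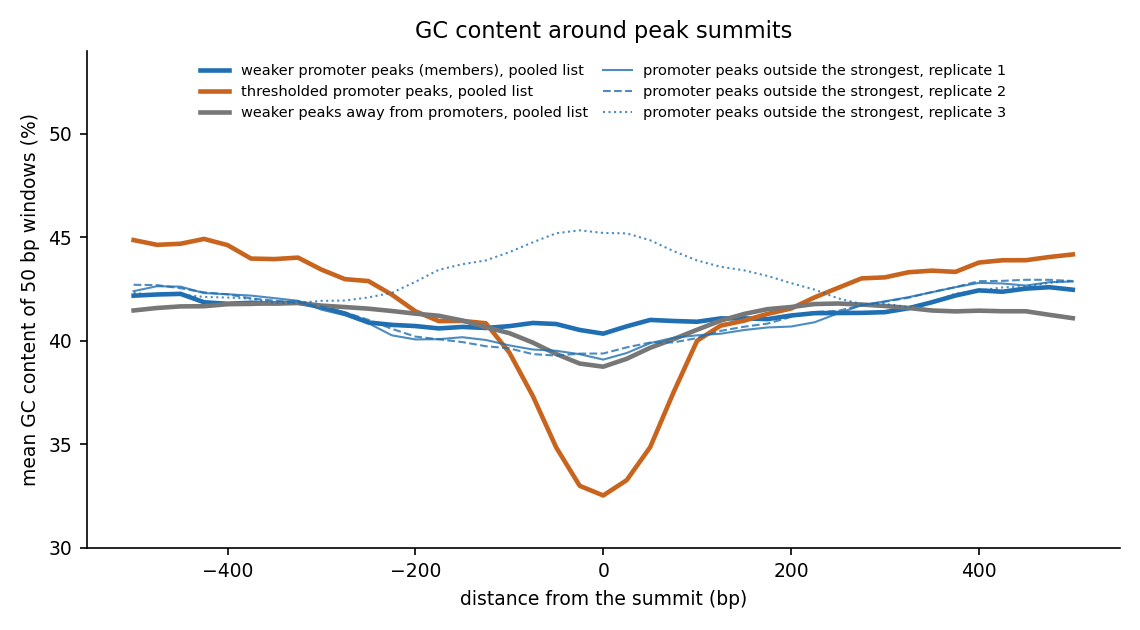
Mean GC content in 50 bp windows by distance from the summit for the members, the thresholded promoter peaks and the weaker peaks away from promoters (thick lines, pooled list), and for promoter peaks outside the strongest of each replicate list (thin lines). The vertical axis starts at 30%. Thresholded peaks drop to 32.5% at the summit, where the members have 40.3%, and replicate 3 rises to 45.2%.

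Divergent promoters, those with a TSS of another gene head to head within 1000 bp, were about as frequent among the members of the pooled list as in the windows. They made up 21.9% of the members, 33.0% of the thresholded promoter peaks and 22.8% of the window positions. Counted by TSS in place of position, 31.4% of the distinct protein-coding TSSs were divergent, above the share of the members. In replicates 1, 2 and 3 the equivalents had 21.3%, 25.7% and 27.6%, each below the 34.96%, 37.1% and 35.03% of the strongest promoter peaks, with no overlap. The difference was -10.8 ± 3.18 percentage points (SD, n = 3, exact permutation p = 0.25). From the strongest to the weakest rank group of the members the share fell from 26.2% to 16.5%.

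Promoter motifs were found at the summits of the members more often than in the flanking DNA, and E-boxes mostly were not. The members were chosen near TSSs, and their flanks mostly lie farther away. Promoter motifs could thus exceed the flanks through this choice alone, and all TSSs at the same offsets are given beside them. Each motif was searched on both strands in the 200 bp around the summit and in windows of the same size 500 bp to each side, and 5 of the 11 listed motifs were more frequent at the summits than in the flanks in the pooled list and in all 3 replicate lists. The core of motif 1, GGTCACAC, was at 3.68% of the member summits and in 0.894% of the flanks, a ratio of 4.11. In the replicate lists the ratio was 3.74, 3.72 and 4.25 (3.90 ± 0.300, SD, n = 3). All TSSs held it in 2.95% of windows at the same offsets, and TSSs with no pooled summit in 2.59%. The DRE, TATCGATA, was at 3.44% of the summits and in 1.12% of the flanks (ratio 3.08), with 3.52, 3.84 and 2.95 in replicates 1, 2 and 3 (3.44 ± 0.450, SD, n = 3). All TSSs at the same offsets held it in 3.51% of windows, about the share of the members. The thresholded promoter peaks held the DRE at 4.57% of summits and motif 1 at 4.21%.

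GAGA repeats were more frequent at the summits of the members than in their flanks. GAGAG was at 29.3% of the member summits and in 22.6% of the flanks (ratio 1.29), whereas the thresholded promoter peaks had 24.5% and 24.3% (ratio 1.01). TSSs at the offsets of the members held it in 22.8% of windows, and those with no pooled summit in 20.4%. In the replicates the ratio of the equivalents was 1.17, 1.14 and 1.32 (1.21 ± 0.0975, SD, n = 3). The share of summits with GAGAG in the equivalents exceeded that in the strongest promoter peaks by 3.16 ± 2.48 percentage points (SD, n = 3, exact permutation p = 0.25). The longer hexamers AGAGAG and GAGAGA were above the flanks at thresholded promoter peaks too (ratios 1.33 and 1.20). Their shares in the equivalents differed from those in the strongest promoter peaks by 0.605 ± 2.79 and 0.715 ± 1.80 points (exact permutation p = 0.75 for each). The Initiator sequence TCAGT was at 34.8% of summits and 29.8% of flanks (ratio 1.17; 1.16 ± 0.0635 in the replicates), close to the 34.2% of all TSSs. The TATA sequence TATAAA was at 28.5% of member summits, 22.5% of flanks and 25.95% of all TSSs at the same offsets, with ratios of 1.33, 1.34 and 0.859 in replicates 1, 2 and 3, so replicate 3 went the other way. It was less frequent than at thresholded promoter peaks (40.0%), and the equivalents differed from the strongest promoter peaks by -11.6 ± 2.34 points (SD, n = 3, exact permutation p = 0.25).

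Any E-box, CANNTG, was at 63.7% of the member summits and in 63.1% of the flanks (ratio 1.01), and all TSSs at the same offsets held one in 63.1% of windows. Among single E-boxes CAGCTG was at 575 summits (11.6%) and in 9.82% of the flanks (ratio 1.18), with 1.08, 1.14 and 1.43 in replicates 1, 2 and 3 (1.22 ± 0.187, SD, n = 3). It was in 11.1% of all TSSs at the same offsets and 8.33% of windows along the arms, and at thresholded promoter peaks its ratio was 0.947. CATATG was at 6.13% of summits and in 5.65% of flanks (ratio 1.09), with 1.03, 1.15 and 0.856 in the replicates, on both sides of 1, and 4.97% of all TSSs held it. CACCTG was less frequent at summits (6.81%) than in flanks (9.24%), with ratios of 0.678, 0.708 and 0.999, and 7.99% at all TSSs. CACGTG had a ratio of 0.996, and 2.65% of all TSSs held it. CAGGTA, bound by the zygotic genome activator Zelda, had a ratio of 0.842 (0.8205 ± 0.0426 in the replicates) and was at 4.73% of all TSSs. The single E-boxes are cases of CANNTG and overlap it. The windows of BNIP3, Ca-beta and Vha55 printed above hold examples of these E-boxes. Shares of motifs are descriptions of the letters in these windows and say nothing of which factor was bound.

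Of all hexamers counted on both strands, 1719 were in at least 5% of summits or flanks. Of these, 297 were above the flanks in the pooled list and all 3 replicate lists and 474 were below. The highest ratio was that of CGATAG, at 524 summits (10.5%) against 5.52% of flanks (ratio 1.91), with 1.74, 1.88 and 2.03 in the replicates (1.88 ± 0.143, SD, n = 3). It overlaps the DRE, as do TATCGA (1.67) and ATCGAT (1.59). Windows of all TSSs at the same offsets held CGATAG in 9.59% of cases. Along the rank groups its share fell from 12.9% in the strongest to 7.04% in the weakest group. GTCACA (1.48), which lies in motif 1, and the GAGA hexamers AGAGAG (1.61) and GAGAGA (1.52) were also among the 10 highest, and the latter overlap GAGAG. The list went on with ACACTG (1.52) and AGAGCG (1.503).

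Some of these hexamers had another ratio at the stronger promoter peaks. GCGCGC was at 5.19% of the member summits and in 3.005% of the flanks (ratio 1.73), but at thresholded promoter peaks in 2.68% and 4.15% (ratio 0.647). In the replicates the ratio of the equivalents was 1.69, 1.25 and 1.81, and their share exceeded that of the strongest promoter peaks by 1.41 ± 0.574 points (SD, n = 3, exact permutation p = 0.25). CGAGCG had ratios of 1.48 in the members and 0.683 in the thresholded promoter peaks. Of the 297 hexamers above the flanks in the members, 138 were below the flanks in the thresholded promoter peaks, whose summits were poorer in G and C by the values given above. The share of all 1719 hexamers that were below the flanks there is not given here, so this count has no background and shows no trait of the 297. The lowest ratios among the members were those of AGGATC (0.425), CCAGGA (0.428), ATCCTG (0.442), AGGATG (0.455) and CAGGAC (0.472). For CCAGGA the thresholded promoter peaks had an even lower ratio of 0.160, and the replicate equivalents 0.383, 0.495 and 0.684.

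A member lay at a TSS of 4026 of the 13945 protein-coding genes, which is 28.9%. In the replicates the equivalents reached 33.9% ± 2.60 (SD, n = 3) of the genes. Thresholded promoter peaks lay at 1936 genes, 13.9%, and members matched in all 3 replicates at 1417 genes, 10.2%. Both a member and a thresholded promoter peak were found at 695 genes, while 3331 genes had a member only and 8678 neither. These 695 are 17.3% of the genes with a member and 35.9% of those with a thresholded promoter peak. Of the genes without a thresholded promoter peak, 27.7% had a member. By gene the 2 kinds of peak were thus found together more often, without regard to the number of starts. Genes with several starts had a member more often. Counting TSSs more than 500 bp apart as separate clusters, the share was 22.99% for genes with 1 cluster, 54.4% with 2, 72.7% with 3 and 88.8% with 4 or more. Thresholded promoter peaks lay at 10.96%, 24.3%, 38.3% and 52.2% of the same genes. Whether the 2 kinds of peak were found together more often at genes with as many clusters was not tested. The gene lists below are therefore read beside genes with as many clusters, in the pooled list and separately in each replicate list, since the replicate equivalents reached more genes (31.3%, 33.9% and 36.5%).

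Most genes with a member had 1 (2822 genes), and 1204 had more. The gene bun, which encodes a TSC-22 family transcription factor, had 9 members over 7 TSS clusters, with signals from 50.4 to 114, and 1 of them was matched in all 3 replicates. Next came sd, which encodes the TEAD factor of the Hippo pathway, mtd, Acsl, which encodes an acyl-CoA synthetase, and Pde8, which encodes a phosphodiesterase, with 8 members each. The genes Kank, cnc, which encodes a stress-response transcription factor, and SNF4Agamma had 7 each. Of the members of Pde8, 4 were matched in all 3 replicates. Each of these genes had 5 or more TSS clusters. A member near the TSSs of more than 1 gene was counted for each, which was so for 719 members.

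Among 26 gene lists, 14 had a member at a larger share of their genes than the 28.9% of all protein-coding genes, and 14 at a larger share than genes with as many TSS clusters. In the pooled list and all 3 replicate lists 9 were above such genes and 7 below. Genes of axon guidance had a member in 19 of 27 cases (70.4%), where genes with as many TSS clusters had 36.1%, and the equivalents gave 74.1%, 70.4% and 48.1% in replicates 1, 2 and 3, against 38.4%, 40.4% and 42.9%. Examples were Ten-a, which encodes a teneurin of synaptic matching (signal 151, ranks 6733, 7978 and 3217), comm, which controls crossing of the midline (141, ranks 5301, 11321 and 3102), and Fas2, a cell adhesion gene of axon bundling (125, ranks 7872, 15562 and 4834). All 3 were matched in every replicate, with their best rank in replicate 3. The Netrin genes NetA and NetB, ligands of the receptor gene fra, had no member, while fra, robo2, robo3 and unc-5 had 1 each. A thresholded promoter peak lay at 8 of 27 genes of this list (29.6%), also above the 18.025% of genes with as many clusters.

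Genes of neuronal differentiation and the synapse had a member in 18 of 26 cases (69.2%), against 49.9% at as many TSS clusters. A thresholded promoter peak lay at 3 of 26 (11.5%), below the 25.7% of genes with as many clusters. The equivalents gave 42.3%, 65.4% and 46.2%, against 52.0%, 53.2% and 55.6%, so that replicates 1 and 3 were below the comparison. Members matched in all 3 replicates lay at 15.4% of its genes, below the 22.4% of genes with as many clusters. The strongest member lay at elav, which encodes a neuronal RNA-binding protein, with a signal of 122 and uneven ranks of 28648, 7417 and 718. It was 424 bp downstream of the TSS and had a thresholded summit within 1000 bp. Next were Nrg, an adhesion gene (103, ranks 4755, 6489 and 19742), and cpo (93.0, ranks 6016 and 12108, not matched in replicate 3). Of the genes of transmitter release, Syt1 and cpx had members, and brp, nSyb, Snap25, Syx1A, Rop, cac and unc-13 had none.

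Of the genes of Notch signalling, 15 of 23 had a member (65.2%, against 32.0% at as many clusters), and the equivalents gave 56.5%, 56.5% and 52.2% (55.1% ± 2.51, SD, n = 3), against 34.4%, 37.03% and 39.7%. Members matched in all 3 replicates were present at 43.5% of its genes, where 11.6% of genes with as many clusters had one. Thresholded promoter peaks lay at 9 of 23 (39.1%), also above the 15.1% of genes with as many clusters. The receptor gene N had 2 members, and others lay at the ligand gene Ser, and at Su(H), which encodes the DNA-binding effector. Among the targets, E(spl)mbeta-HLH had 2 members, the stronger with a signal of 132 (chr3R:26005792-26006167, 43 bp downstream of the TSS, ranks 3930, 5165 and 11549). The coactivator gene mam had 4 members, the strongest at 129 (ranks 4044, 25042 and 3058), and sno had 2 (122, ranks 4940, 11439 and 10015). Repressor genes E(spl)m5-HLH and E(spl)mgamma-HLH had none.

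Lists of several other tissues were above the share of genes with as many clusters in the pooled list. Glial genes had a member in 7 of 11 cases (63.6%, against 45.2%; 63.6%, 45.5% and 63.6% in the replicates, above the comparison in 2 of 3), led by pnt, which encodes an ETS factor (126, ranks 11696, 8052 and 2509). Muscle and mesoderm genes had one in 15 of 27 cases (55.6%, against 39.9%; 59.3%, 51.9% and 51.9% in the replicates, above it in 3 of 3), led by Tm1, a tropomyosin gene (142, ranks 5413, 10488 and 7794), and kirre, a gene of myoblast fusion (134, ranks 13479, 4628 and 8440). Genes of the gut, endoderm and fat body had one in 7 of 13 cases (53.8%, against 40.1%; 46.2%, 46.2% and 53.8% in the replicates, against 42.5%, 44.5% and 47.3%), led by dve (135) and GATAe (123.07). Neuroblast factors were close to the comparison, with 9 of 23 (39.1%, against 39.9%; 56.5%, 39.1% and 47.8% in the replicates, above it in 2 of 3), among them insc, grh and SoxN, and none at pros, dpn or hb. Blood cell genes had 5 of 13 (38.5%, against 41.5%; 30.8%, 23.1% and 23.1% in the replicates, below it in each), led by ush (153).

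Genes of chromatin and the cell cycle were also above the comparison. Chromatin regulators and insulator genes had a member in 14 of 26 cases (53.8%, against 30.2%; 61.5%, 50% and 57.7% in the replicates), and members matched in all 3 replicates at 34.6% of them, against 10.6%. Thresholded promoter peaks lay at 11 of 26 (42.3%), also above the 14.1% of genes with as many clusters. Examples were Su(z)2, a Polycomb group gene (142, ranks 7082, 3577 and 6608), Iswi, a nucleosome remodeller (134, ranks 4711, 10175 and 10937), and trx (125, ranks 6816, 8700 and 4231). Genes of cell cycle and DNA replication had one in 15 of 32 cases (46.9%, against 30.6%; 46.9%, 56.2% and 59.4% in the replicates), such as dap, an inhibitor of cyclin-dependent kinase (134, ranks 3470 and 4849, not matched in replicate 3). Heat shock and chaperone genes had one in 7 of 17 cases (41.2%, against 31.5%; 52.9%, 52.9% and 35.3% in the replicates, above the comparison in 2 of 3), led by DnaJ-1 (150) and Hsc70-3, which had 4 members.

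Genes of the core cell machinery lay on both sides of the comparison. Of the protein genes of the cytoplasmic ribosome 30 of 86 had a member (34.9%, against 24.5%). The replicates gave 36.05%, 48.8% and 36.05% (against 26.9%, 29.8% and 32.3%). A thresholded promoter peak lay at 56 of 86 (65.1%, against 11.6% at as many clusters), and 13 had both. The strongest members lay at RpS9 (150, no match in replicate 1), RpS6 (149, no match in replicate 2) and RpLP2 (145, ranks 16384, 3170 and 15469). Mitochondrial ribosomal protein genes had 17 of 73 (23.3%, against 22.99%), genes of the respiratory chain and ATP synthase 25 of 84 (29.8%, against 25.6%), the proteasome 9 of 34 (26.5%, against 24.8%) and translation factors 16 of 52 (30.8%, against 26.4%). Of these, the respiratory chain and the proteasome were above the comparison in 3 of 3 replicates and the other 2 lists in 2 of 3. Below it in the pooled list were the Mediator and general transcription factors with 12 of 50 (24.0%, against 25.2%), the RNA polymerases with 5 of 31 (16.1%, against 24.0%) and the aminoacyl-tRNA synthetases with 5 of 33 (15.2%, against 25.8%). None of these 3 lists was below in every replicate list. The Mediator list had 28.0%, 32.0% and 32.0% (against 27.7%, 30.5% and 33.0%), and the RNA polymerases had 29.0%, 32.3% and 41.9% (against 26.4%, 29.4% and 31.9%). The synthetases had 21.2%, 27.3% and 45.5% (against 28.3%, 31.2% and 33.7%).

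Several gene families known for use in late or adult tissues were below the comparison. Of 179 chemosensory receptor genes 16 had a member (8.94%, against 25.3% at as many clusters). The replicates gave 8.38%, 8.38% and 7.26% (against 27.7%, 30.6% and 33.1%). Of these genes 0 had a thresholded promoter peak, which allows a share of up to 1.68% (against 12.1% at as many clusters). The strongest of these members, at Gr97a (signal 87.4) and Gr63a (76.4), were nearer to the TSS of another gene, CG5521 and Lamtor4. Odorant-binding protein genes had 5 of 51 (9.80%, against 24.2%) and cuticle protein genes 19 of 117 (16.2%, against 24.5%), and both lists were below the comparison in 3 of 3 replicates. Cytochrome P450 genes were nearer to it, with 18 of 83 (21.7%, against 26.2%), and had 22.9%, 24.1% and 36.1% in the replicates, of which replicate 3 was above its comparison of 34.1%. The strongest cuticle gene member, at Cpr73D (153), was nearest to Ogdh and is the peak named above for that gene. Trypsin and Jonah protease genes had 0 of 27, which allows up to 11.1% (against 22.99%), and 14.8%, 0% and 14.8% in the replicates. Chorion, vitelline membrane and yolk genes had 0 of 17, which allows up to 17.6% (against 22.99%), and 0%, 0% and 11.8% in the replicates. For both lists the comparison in the replicates was 25.4%, 28.4% and 30.8%. The limits given for counts of 0 cover the counting of genes only.

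**Figure D5:**
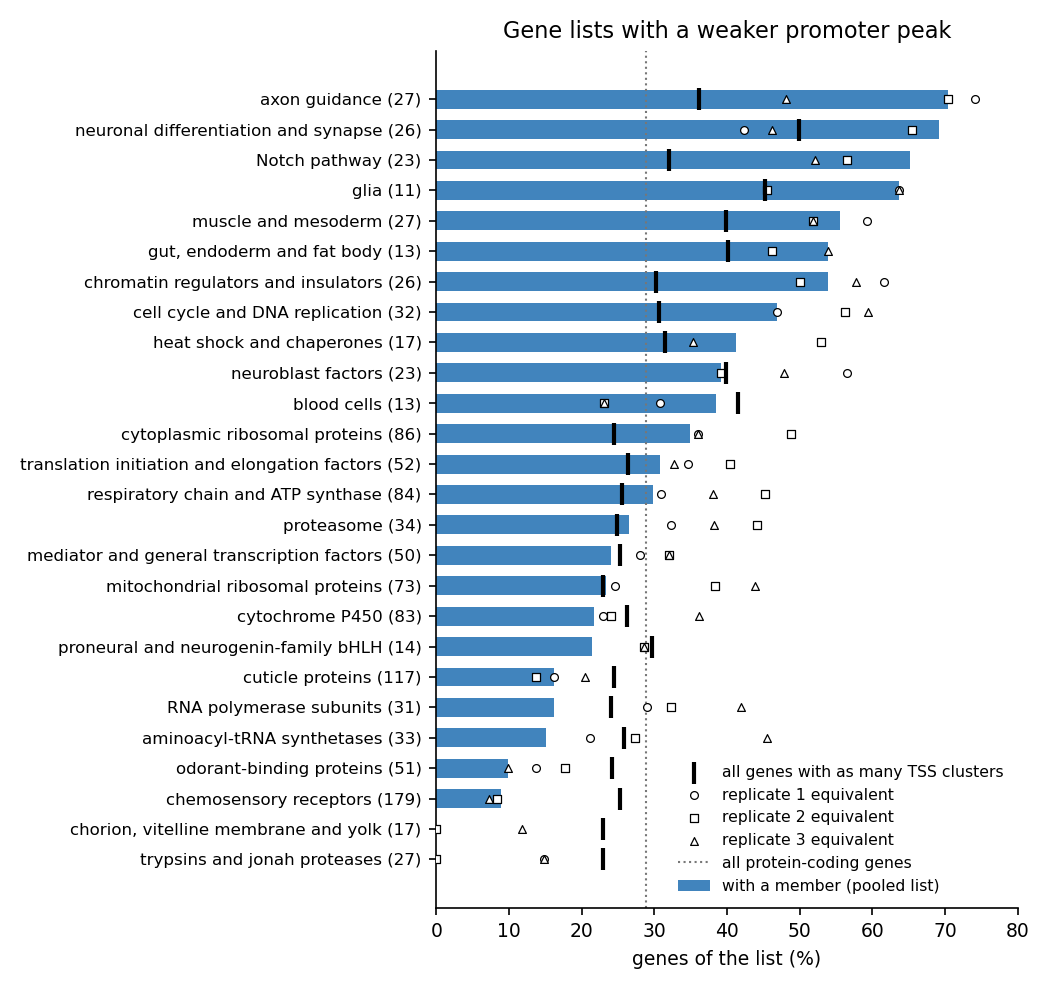
Share of the genes of each of 26 lists (number of genes in brackets) with a weaker promoter peak at a TSS in the pooled list (bars) and in the 3 replicate lists (points), beside all genes with as many TSS clusters in the pooled list (black ticks) and all protein-coding genes (dotted line, 28.9%). Axon guidance (70.4%) is at the top, and chemosensory receptors (8.94%), chorion and protease genes are at the bottom.

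Few genes make up the list of bHLH genes, and its share depended on the window. It held proneural and neurogenin-family genes and also da, emc, twi and nau. Of its 14 genes 3 had a member (21.4%, against 29.7% at as many clusters). The equivalents gave 28.6% in each replicate (against 32.2%, 34.9% and 37.6%). With a TSS window of 1000 bp the share was 42.9%, above the 36.3% of all genes. At tap (FBgn0015550) there were 2 members. The stronger lay at chr3L:17359436-17359811, with its summit 58 bp upstream of the TSS, a signal of 106 and rank 7406. It ranked 4531 in replicate 1 and 5381 in replicate 3 and was not matched in replicate 2. The other, 213 bp away and 155 bp downstream of the TSS, had a signal of 64.1, ranked 7276 in replicate 1, and matched the same peak of replicate 3. At ase, a proneural gene of neuroblasts, the 2 members were 205 bp apart (signals 95.1 and 46.8), and at Oli 204 bp apart (147 and 61.6), with no match of Oli in replicate 3. The weaker member of ase was matched in replicate 3 only, by the same peak as the stronger. Both members of Oli matched the same peak of replicate 1. The proneural genes ac, sc, l(1)sc, ato, amos and cato had no member. A thresholded promoter peak was present at 3 of the 14 genes (21.4%, against 13.8% at as many clusters). They were Oli, beside its members, and da, which encodes Daughterless, and emc, both without a member.

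By chromosome arm the members numbered 23.8 to 27.8 per 100 distinct TSSs on the 5 large arms, in the order 3R, 2L (24.8), 2R (25.5), X (27.5) and 3L. Chromosome 4 had 52 members at 142 TSSs, or 36.6 per 100, and 7 thresholded promoter peaks, or 4.93 per 100. No replicate error was computed for these counts, so the neighbouring arms in this order are not told apart.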

How the data were processed

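Peak lists of 3 replicates and their pool were used as deposited, in dm6 per the labels. Each peak has a signal value and the −log10 of a q-value, both from the authors' peak caller. The sources used here do not name the caller, the aligner, their versions or the threshold of the irreproducible discovery rate. The labels name 1 possible control, which was not analysed here. Because scales differ between lists, signal was compared between lists only through its order. The signal values given are those of the pooled list. Depth is unknown, and counting limits cover counting error only.

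TSSs came from Ensembl release 115 and sequence from the RefSeq copy of the assembly. Measures were computed with Python 3.11.15, numpy 2.4.6 and pandas 2.3.3, in the pooled list and in each replicate list, and were tested on simulated data. Differences were tested with an exact sign-flip permutation test over the 3 lists. Alternatives were other TSS windows, match distances, GC and motif windows, numbers of strongest peaks, and subsets of the members. Named items were the strongest and weakest members, those strong in all replicates, genes with most members, up to 3 genes per list, the bHLH genes and the extreme hexamers. Not every gene so named is described singly. The members and the gene lists were chosen with earlier results of these data known, and 2 lists were corrected after matches were seen (wrongly caught symbols Cyp1, Cp110 and Cp190 were dropped). The symbols Z4, Dl, nct, msh and lb were not matched in the annotation. The added alternatives and the printed sequences were chosen after seeing the data.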

Additional observations from a re-analysis of the deposited data

How the results depend on the processing

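The GC differences at the summits of the members from thresholded promoter peaks and from weaker peaks elsewhere kept their direction in the settings tried. Taken relative to the flanks, the difference from weaker peaks elsewhere did not, with 0.30, -0.23 and -0.62 points in replicates 1, 2 and 3. With TSS windows of 200 and 1000 bp there were 3113 and 7283 members. They were 12.1% and 28.4% of the weaker peaks, genes with a member 20.3% and 36.3%, and members at a promoter with a thresholded summit 2.54% and 17.4%. With 200 bp, 28.3% were at divergent promoters. Summit distances of 100 and 500 bp gave 13.8% and 52.1% matched in all lists, and leaving out 1 replicate gave 38.8% to 50.1%, since fewer lists had to match. Among members matched in all 3 lists, 8.87% were at a promoter with a thresholded summit and they reached 10.2% of genes. Members without a thresholded summit within 1000 bp reached 24.9% of genes, and 0% shared a promoter, by construction. Hexamers above the flanks numbered 120 with 50 bp to each side and 344 to 580 without 1 replicate, the highest without replicate 3, against 297. Listed motifs above the flanks numbered 5 to 7 without 1 replicate. The GC difference from thresholded promoter peaks stayed between 4.58 and 9.51 points. Of the 26 lists, 13 to 14 were above the share of all genes, but 4 changed side in 9 of 78 settings. With 200 bp, blood cell genes had 7.69% and translation factors 17.3%, below the 20.3% of all genes, and proteasome (26.5%) and bHLH genes (21.4%) came above it. With 1000 bp, bHLH genes had 42.9% and translation factors 32.7%, against 36.3%. Among members matched in all lists, the proteasome had 17.6%, and translation factors and blood cell genes 7.69%, against 10.2%. With 50 bp to each side the ratio of CANNTG was 0.994 and that of CACGTG 1.05, across 1. The cause of these shifts was not tested. No paired analysis was possible because there is 1 group. Depth, the control reads and embryos without the tag were not analysed here.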
